A study of Xenopus tropicalis with 30 samples.

Results

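Runs of 6 or more transcription start sites were described in whole adult bodies of the western clawed frog *Xenopus tropicalis*. A run was a series of start sites on 1 chromosome and 1 strand with at most 2000 bases from the end of one site cluster to the start of the next. On the 10 chromosomes, outside positions 58000001 to 59000000 of chromosome 9, the start sites formed 34173 runs, of which 1187 had 6 or more sites. These 1187 runs held 9655 of 61633 start sites, or 15.7%. Another 11407 runs had 2 to 5 sites and 21579 were single sites.

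WTSS-seq, which counts the 5′ ends of transcripts after depletion of ribosomal RNA, was run on 6 individual females and 6 individual males, all adults sampled as whole bodies as far as the labels state. A pool of RNA from 3 adult females was measured in 2 further WTSS-seq libraries and in 1 CAGE library, a method that selects RNA by its 5′ cap. WTTS-seq, which counts poly(A) sites, was run on 6 females and 6 males that carry the same sex and numbers in the labels. The labels give no age, strain or treatment, and the deposited tables name no genes, so the labels could not be checked against marker genes and runs are named by position. Positions are those of the tables, counted from 1, and their genome build is not given in the sources used here.

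Transcription of a gene can begin at more than 1 promoter, and an alternative start changes the first exon and often the 5′ untranslated region. A promoter may concentrate its starts on a few bases or spread them over a wide window, and many animal genes use one promoter in the germ line and another in other tissues. Sequencing of 5′ ends also reads ends that carry no cap, such as those of cut or partly degraded RNA, whereas CAGE is designed to select capped ends. Runs without gene names may join starts of neighbouring genes, or starts of 1 gene with 5′ ends that lie inside it.

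The 12 individual WTSS-seq libraries held between 1866839 and 6643184 counts. The library of female 3 stood apart from those of the other females: 1 sequence that is not a chromosome took 67.2% of its counts, and its TMM scaling factor was 0.523 against 1.27 to 1.61 in the other 5 females. Male factors lay between 0.662 and 0.875. Male columns headed Male3 and Male4 (the latter on 2 columns) could not be tied to 1 numbered animal each and were used as males without a number. Counts of calls without female 3 are given beside the main counts. Since whole bodies were sampled, fewer cells of a type and less RNA per cell cannot be told apart in any sex difference below.

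The runs were compact. Of the 1187, 433 had 6 sites, 512 had 7 to 9 and 242 had 10 or more, up to 33. Their median length was 4590 bases (quartiles 3332 and 6230.5, range 390 to 22053), and the median gap between neighbouring clusters was 330.5 bases. The median cluster was 120 bases wide. The plus strand held 686 runs and the minus strand 501. Runs were spread over all 10 chromosomes and took from 11.4% of the start sites of chromosome 6 (67 runs) to 19.99% of those of chromosome 8 (175 runs). At the limit of the definition, the 715 runs of 5 sites had a median length of 2927 bases.

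The most crowded runs lay on chromosomes 9, 4, 1 and 5. A run of 33 sites on the plus strand of chromosome 9 reached from 70929558 to 70949906, and a run of 32 sites on the minus strand of chromosome 4 from 41375225 to 41397277. Next came 6 runs of 25 sites, of which the first 4 by chromosome and position are described here, and a further one on chromosome 4 appears below among the most even runs. Those 4 lay on the plus strand of chromosome 1 (17375372 to 17395419) and of chromosome 4 (29503483 to 29513276, 29566809 to 29580897 and 38861797 to 38874670).

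In most runs the leading start took no more than 50% of the run's level, and it rarely took nearly all. Over the 1187 runs, the dominant start was the site with the highest mean level, taken as the mean of the female and the male mean. Its share is its part of the run's summed mean level. In a run that differs in level between the sexes, the sex with the higher level therefore weighs more. Its share had a median of 44.3% (quartiles 33.2% and 61.5%) over the 1187 runs. It exceeded 50% in 475 runs and 90% in 56. Expressed as the effective number of starts, the inverse of the chance that 2 counts share a site, the median run had 3.42 starts (quartiles 2.28 and 4.57). At the limit of the definition, the runs of 5 sites had a median dominant share of 51.6% and 2.78 effective starts, and the runs of 6 sites 48.2% and 3.08.

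The dominant start was the most upstream site of the run in 276 runs (23.3%), the most downstream in 154 (13.0%) and an inner site in 757 (63.8%). A site drawn alike from every run would be the most upstream in 13.4% of them. Counts lay toward both ends: when each run was cut into 5 equal parts, the first part held 34.6 ± 3.42% of its counts in females and 32.8 ± 1.62% in males (SD, n = 6 each). The last part held 22.6 ± 2.28% and 23.7 ± 0.953%. Each of the 3 inner parts held between 13.4% and 15.5% on average in either sex. The end parts each contain an end site by construction, so this profile describes these runs and was not tested.

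**Figure D1:**
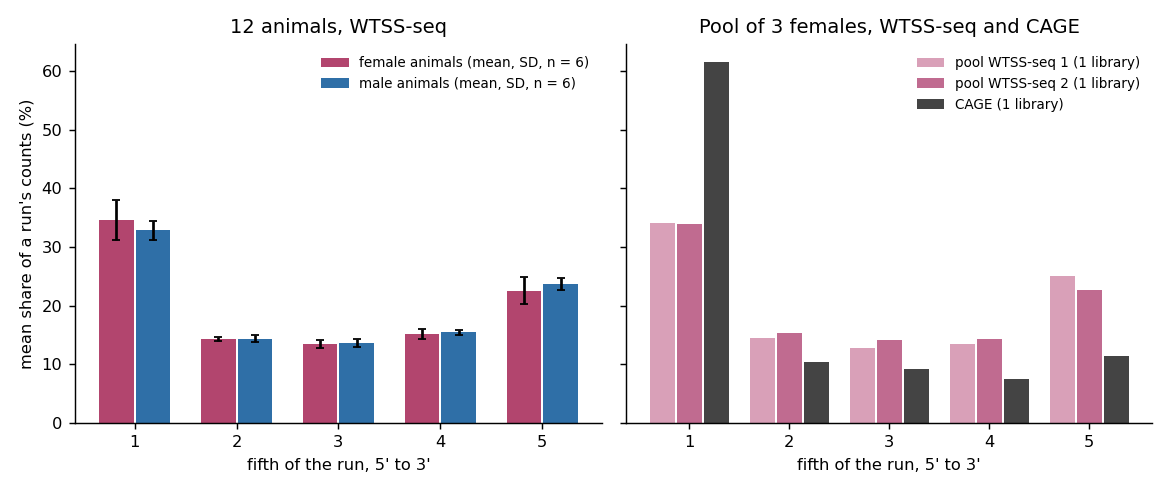
Mean share of a run's counts (%) in each of 5 equal parts of the run from 5′ to 3′, in 6 female and 6 male animals over 560 runs (left; bars are means, whiskers SD) and in 2 WTSS-seq libraries and 1 CAGE library of the female pool over 490 runs (right; single libraries, no error). The first part holds 34.6% and 32.8% in the animals and 61.6% in the CAGE library.

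Evenness was measured as the chance that 2 counts of a run, drawn without replacement, lie at different sites. It is 0 when 1 site takes all counts and does not depend on depth by its form. It was taken for the 560 runs with at least 10 counts in every one of the 12 animals, while 627 runs were under that minimum in at least 1 animal. Male libraries fell short more often, in 212 to 466 runs each, beside 29 to 203 in female libraries. Evenness and position by sex below rest on these 560 runs. The median number of counts per run was between 44.5 and 259.5 in the 12 libraries. For these runs the dominant start was instead the site with the highest share of the run averaged over the 12 animals. Median evenness was 0.628 (quartiles 0.463 and 0.733), with a median dominant share of 48.2%. For 1579 runs of 2 to 5 sites under the same minimum, median evenness was 0.187 and the median dominant share 88.5%, a difference that the number of sites in part fixes.

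Evenness was a steady property of a run from animal to animal. The median SD of a run's evenness among animals of 1 sex was 0.0716 in females and 0.0658 in males, whereas mean evenness had an SD of 0.197 from run to run. The identity of the highest site was less steady: it was the same site in all 12 animals in 203 of 560 runs (36.2%), in all 6 females in 260 and in all 6 males in 307. Over the 560 runs, evenness had a Spearman rho of 0.428 with the number of sites and of -0.365 with mean level. These are descriptions across runs, which share their libraries, and carry no test.

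The most even runs spread their starts over 13 to 25 sites. In the run of 25 sites on the plus strand of chromosome 4 (109343999 to 109364973), evenness was 0.907 ± 0.0201 in females and 0.876 ± 0.0368 in males, and its highest site took 20.5 ± 5.91% and 26.3 ± 6.45% of the counts. Runs on chromosome 4 (36440023 to 36450108, 18 sites), chromosome 3 (38606073 to 38615448, 13 sites) and chromosome 9 (70574817 to 70583587, 14 sites), all on the plus strand, had female means between 0.861 and 0.880 and male means between 0.872 and 0.883. None of these 4 passed the limma test for a sex difference in evenness (adjusted p between 0.302 and 0.835).

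At the other end stood runs of which nearly all counts came from 1 site. In the plus-strand run of 6 sites on chromosome 3 (12319962 to 12321140), the site at 12320199 held 99.1 ± 0.844% in females and 99.5 ± 0.311% in males. In the run of 9 sites on chromosome 2 (38773507 to 38777757, plus strand), the most upstream site held 99.1 ± 0.882% and 97.7 ± 0.995%. The most upstream site of a 6-site run on chromosome 10 (14410565 to 14414713, plus strand) held 99.0 ± 0.503% in females and 94.4 ± 3.99% in males. A 6-site run on chromosome 1 (159765026 to 159769712, plus strand) was led by its site at 159767062, which took 94.1 ± 3.40% in females and 99.4 ± 0.303% in males. Of these 4 runs, only that on chromosome 1 differed in evenness between the sexes (0.112 ± 0.0615 in females and 0.0111 ± 0.00602 in males, limma adjusted p = 0.0179). Being picked for low mean evenness over the same animals limits how far the sexes of these runs can differ.

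Averaged over runs, evenness did not differ between females and males beyond the spread among animals. The mean over 560 runs was 0.585 ± 0.0170 in females (0.573 to 0.619) and 0.572 ± 0.0117 in males (0.553 to 0.585). The groups overlapped, and the exact two-sided permutation test over 924 splits of 6 against 6, whose smallest p is 0.00216, gave p = 0.147. Adjusted over 5 such values per animal it was 0.244. The mean share of the dominant start was 51.4 ± 2.93% in females and 53.1 ± 0.947% in males (exact permutation p = 0.195, adjusted 0.244). The gap in evenness between these runs and runs of 2 to 5 sites was 0.337 ± 0.00516 in females and 0.343 ± 0.00699 in males (exact permutation p = 0.184, adjusted 0.244).

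Female 3 had the highest evenness of all 12 animals, 0.619, and the lowest dominant share, 45.7%. Without that library the female means were 0.579 ± 0.00535 for evenness and 52.6 ± 0.869% for the dominant share (n = 5), and neither differed from males (exact permutation p = 0.305 and 0.381).

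Where the counts lay along the run depended on that library. The mean position of counts, 0 at the most upstream and 1 at the most downstream site, was 0.441 ± 0.0292 in 6 females and 0.455 ± 0.0115 in 6 males (exact permutation p = 0.329, adjusted 0.329). Female 3 stood at 0.499 and the other 5 females between 0.418 and 0.443. Without female 3, the female mean was 0.430 ± 0.00928 and males lay 0.0251 further downstream (exact permutation p = 0.00649, adjusted over the 5 values 0.0162, n = 5 and 6). That difference was therefore seen among 11 animals and not detectable among all 12. The library left out was the one that lay apart in this same measure. The adjustment does not cover the choice of that library.

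**Figure D2:**
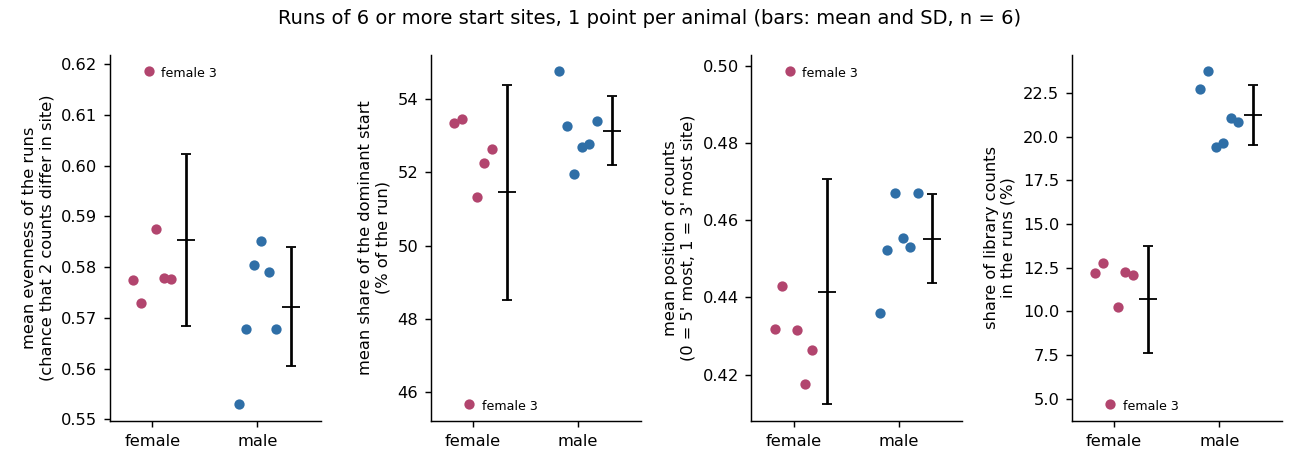
Values of 6 female and 6 male animals: mean evenness, mean share of the dominant start (%) and mean position of counts over 560 runs, and share of library counts in all 1187 runs (%). Points are animals, bars the mean and SD; female 3 lies apart in each panel, at 0.619, 45.7%, 0.499 and 4.68%.

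The runs took a larger part of male than of female libraries, and 1 site carried most of that difference. Their share of library counts was 10.7 ± 3.07% in females (4.68% to 12.8%) and 21.2 ± 1.71% in males (19.4% to 23.7%), with no overlap (exact permutation p = 0.00216, the smallest the design allows, adjusted 0.0108). When the highest member site, at 61406537 on chromosome 5, was left out, the shares were 10.2 ± 2.87% and 11.1 ± 1.17% (exact permutation p = 0.615), an alternative chosen after seeing the data. With female 3 also left out, the direction of what remained turned, to 11.3 ± 0.821% in 5 females and 11.1% in males (exact permutation p = 0.801). Without the 100 highest sites of the table, 16 of which lie in these runs, they were 13.2 ± 1.73% and 14.8 ± 1.17% (exact permutation p = 0.0693).

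That site opens a run of 10 sites on the plus strand of chromosome 5 (61406296 to 61412902), which had the highest level of all 1187. Its summed level ranged from 2827 to 10014 counts per 1000000 (CPM, on the TMM scale) in females with a median of 3144, and from 125953 to 157165 in males with a median of 148461. All males lay far above all females (log2 male over female 5.21 ± 0.46 SE, edgeR adjusted p = 1.26e-07). Its first site took 95.8 ± 3.16% of the run in females and 94.7 ± 1.70% in males. Evenness in both sexes was low, 0.0811 ± 0.0583 and 0.101 ± 0.0303, and did not pass the limma test (adjusted p = 0.689).

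The other 5 of the 6 runs with the highest level were also higher in males. All 6 were picked by their mean level in these 12 animals, so a high level in 1 sex can admit a run. Their level tests rest on the same values and are given as description. A run of 8 sites on chromosome 2 (62330830 to 62335870, minus strand) ranged from 11.7 to 242 CPM in females and from 2529 to 21391 CPM in males (log2 6.89 ± 0.89, edgeR adjusted p = 4.62e-06). A run of 8 sites on chromosome 10 (16537096 to 16540153, plus strand) had medians of 178 CPM in females and 7960 in males (log2 5.28 ± 0.38, edgeR adjusted p = 2.41e-08). In both, 1 site held about the same share in either sex, 90.5 ± 2.95% and 89.5 ± 1.44% in the first and 89.98 ± 7.98% and 90.8 ± 3.20% in the second.

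The remaining high runs were shared out more evenly or changed shape. The run of 9 sites on the minus strand of chromosome 10 (39634249 to 39643684) had a log2 male over female of 5.43 ± 0.38 (edgeR adjusted p = 2.09e-08), from a median of 122 CPM in females to 5374 in males. Its evenness was 0.664 ± 0.0208 in females and 0.666 ± 0.0283 in males. The 7-site run on chromosome 5 (108059472 to 108066440, minus strand) rose by a log2 of 3.90 ± 0.36 and was less even in males, 0.120 ± 0.0313, than in females, 0.324 ± 0.151 (limma adjusted p = 0.0390). Female 3 stood at 0.623 there. A 6-site run on chromosome 7 (56356694 to 56362606, minus strand) rose by 2.76 ± 0.25, and its evenness was 0.586 ± 0.0438 in females and 0.506 ± 0.0405 in males (limma adjusted p = 0.0475).

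Among the member runs tested, the summed level was more often higher in females. Of 1126 runs that passed the low-count filter, 776 differed between the sexes by edgeR's quasi-likelihood test at an adjusted p of 0.05, against 68.8% of all 13436 runs and single sites tested. Of the member runs tested, 492 (43.7%) were higher in females and 284 (25.2%) in males, beside 36.1% and 32.7% over all runs. The median log2 male over female was -0.62 for the member runs and -0.18 for all. Runs were chosen by their number of listed sites, and the site list was also made with the 3 libraries of the female pool. This can admit runs that are low in males, and its part in these shares was not tested. With library totals alone in place of TMM, 645 were higher in females and 208 in males, beside 6351 and 3320 of all 13436 runs. That scaling moved the median of all runs by -0.73, whereas RLE size factors moved it by 0.11. RLE gave 457 higher in females and 301 in males, beside 4556 and 4590 of all runs. Without female 3, 801 of 1134 runs differed (70.6%), beside 72.9% of all 15359 runs tested. Of these 801, 455 were higher in females and 346 in males.

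The most crowded runs included both directions. The run of 33 sites on chromosome 9 ranged from 1.91 to 6.04 CPM in females and from 78.1 to 170 CPM in males (log2 4.91 ± 0.37, edgeR adjusted p = 3.23e-08). All 33 of its sites had male counts and 25 had female counts. The run of 32 sites on chromosome 4 was likewise higher in males, with medians of 54.4 and 542 CPM (log2 3.47 ± 0.26, edgeR adjusted p = 3.46e-08). Its evenness of 0.864 ± 0.0188 in females and 0.871 ± 0.0100 in males was close to that of the most even runs. In the 25-site run at 38861797 on chromosome 4, the median was 55.7 CPM in females and 1570 in males (log2 4.84 ± 0.31, edgeR adjusted p = 1.33e-08), and males were less even, 0.661 ± 0.0251 against 0.735 ± 0.0402 (limma adjusted p = 0.0272).

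The neighbouring runs of 25 sites on chromosome 4, at 29503483 and 29566809, were nearly confined to females. The first held 5413 counts in 6 females at all 25 sites and 7 counts in 6 males at 3 sites, and the second 5530 female and 11 male counts. Female levels of the first lay between 37.8 and 1288 CPM with a median of 59.98, and those of the second between 65.6 and 941 CPM with a median of 107. In both the highest value belonged to female 3. Male levels did not exceed 1.26 and 1.76 CPM, so the groups did not overlap (edgeR adjusted p = 9.22e-06 and 9.97e-07). The 25-site run on chromosome 1 had medians of 82.1 CPM in females and 32.8 in males (log2 -1.25 ± 0.24, edgeR adjusted p = 0.000198).

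Sites with counts in 1 sex alone were more often female ones, in these runs and in the whole table. Of the 9655 sites, 8072 had counts in both sexes, 1274 in females alone (13.2%), 264 in males alone (2.73%) and 45 in none of the 12 animals. Over all 61633 start sites on the chromosomes, 7149 had counts in females alone (11.6%) and 2979 in males alone (4.83%). The site list was also made with the 3 libraries of the female pool, which can admit sites low in males; their part in these counts was not tested. Male libraries had counts at 4941 to 6591 member sites and female libraries at 6544 to 8212. As whole runs, 1165 had counts in both sexes, 21 in females alone and 1 in males alone. The shares over all runs are not given here, so these counts are not read as particular to the member runs. Absence here means only that no count was seen at these depths.

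Sites of 1 run that differed between the sexes mostly did so in the same direction. Of 2342 member sites that passed the filter, 1625 differed between the sexes (edgeR adjusted p under 0.05), against 70.4% of all 15050 sites tested. Of these, 785 were higher in males (33.6% of all sites tested were) and 840 in females (36.8% of all). Which direction held more sites depended on the setting. With library totals alone, which moved the median of all sites by -0.63, male-higher sites numbered 650 and female-higher ones 1078. Over all 15050 sites they numbered 4079 and 6823. With RLE size factors, which moved it by 0.12, these were 809 and 788, with DESeq2 829 and 785, and without female 3, where 2616 sites were tested, 983 and 882. The other 7313 member sites were too low to test. Among the 385 runs with at least 2 such differing sites, all of them were higher in females in 189 runs and higher in males in 168. In 28 runs (7.27%) sites differed in both directions, beside 46 of 739 runs of 2 to 5 sites (6.22%). No site passed in 512 runs, of which 332 had no site high enough to test.

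The use of starts within a run differed between the sexes in about the same share of these runs as of all runs. A site-by-sex test (diffSpliceDGE) could be made in the 560 runs with at least 2 sites past the filter. Of these, 137 passed (24.5%), beside 24.7% of all 1956 runs tested. Without female 3, 179 of 612 passed (29.2%), beside 30.4% of all 2409. These 560 are not the same set as the 560 with evenness values, since 409 runs were in both. Evenness differed between the sexes in 76 of its 560 runs (13.6%, limma adjusted p under 0.05), beside 16.7% of all 2389 runs of 2 or more sites tested. It was higher in females in 44 (10.9% of all runs tested were) and higher in males in 32 (5.82% of all). Without female 3 it differed in 93 runs, 50 higher in females and 43 in males, beside 19.6% of all runs tested. Of those 76 runs, 56 could be tested for start use and 41 of them passed. Both tests use the same counts, and the like overlap over all runs is not given here, so it is not read as a trait of these runs.

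**Figure D3:**
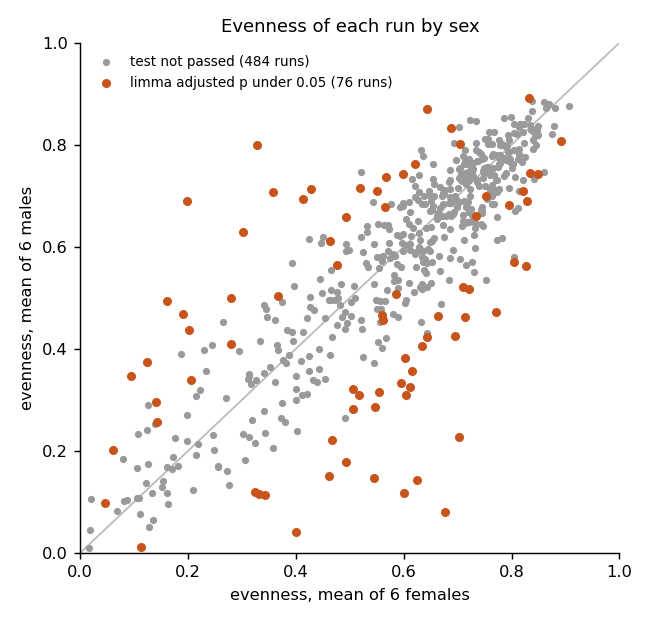
Evenness of each of 560 runs as the mean of 6 females (x axis) and of 6 males (y axis), both from 0 to 1; the grey line marks equal values. Orange points are the 76 runs past the limma test (44 more even in females, 32 in males) and grey points the 484 others.

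Among the 10 runs with the largest evenness differences, 6 were less even in males. In all 10, the limma call held when each library was left out in turn, but the runs were picked by that test in the same libraries. Under the replicate block, in the 6 numbered libraries, their limma adjusted p lay between 0.0324 and 0.158, so not all were called there. The largest was in a run of 13 sites on chromosome 3 (129704566 to 129717593, plus strand), where evenness lay between 0.611 and 0.794 in females and between 0 and 0.257 in males (difference -0.596 ± 0.0524 SE, limma adjusted p = 1.48e-05). Females had counts at all 13 sites, from 4433 counts, and males at 2, from 390 counts. Single male libraries held between 10 and 129 counts there, so detection of sites is compared at unlike depth. A 7-site run on the same strand (120390525 to 120395648) fell from 0.601 ± 0.0672 in females to 0.117 ± 0.0676 in males (limma adjusted p = 6.13e-06). There the site at 120390576 held 36.5 ± 14.8% in females and none of 537 male counts, which allows up to 0.559%, while the site at 120390878 rose from 47.3 ± 11.5% to 93.8 ± 3.71%.

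Narrowing in males took the same form elsewhere. In the 10-site run on chromosome 4 (67295185 to 67299791, minus strand), the leading site at 67297602 took 48.3 ± 13.8% in females and 87.6 ± 4.99% in males, and evenness was 0.703 ± 0.116 and 0.228 ± 0.0877 (limma adjusted p = 0.000137). An 11-site run on chromosome 2 (7799525 to 7807277, plus strand) had a median evenness of 0.328 in females and 0.0283 in males (limma adjusted p = 0.0207). Female 3 was highest there at 0.853. Leaving out 1 library at a time, its adjusted p stayed between 0.000972 and 0.0448. In males its site at 7801183 took 97.9 ± 1.63%, whereas the CAGE library placed 89.2% of 916 counts (95% Wilson interval 87.0% to 91.0%) at the site at 7803729, which had none of 2954 male counts, allowing up to 0.102%. In WTSS-seq of the 6 females that site took 10.01 ± 5.10% of the run (SD, n = 6), with a median of 9.09%.

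The other 4 were more even in males. In a 7-site run on chromosome 8 (23081782 to 23084561, minus strand), evenness ranged from 0.0799 to 0.517 in females with a median of 0.156, and from 0.609 to 0.791 in males (difference 0.492 ± 0.0698, limma adjusted p = 0.000505). Its most upstream site fell from 88.3 ± 11.5% of the run in females to 15.0 ± 7.52% in males. Male values there rest on 10 to 102 counts per library. The run as a whole fell by 4.11 ± 0.42 on the log2 scale in males (edgeR adjusted p = 4.99e-07). An 8-site run on chromosome 10 (5526654 to 5530990, plus strand) had an evenness of 0.327 ± 0.0863 in females and 0.799 ± 0.0565 in males (limma adjusted p = 1.30e-05), and its first site took 81.3 ± 5.47% and 20.2 ± 11.9%. Summed level did not differ in that run (edgeR adjusted p = 0.196). Male libraries held 16 to 43 counts in it.

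In the 8-site run on chromosome 1 (85673497 to 85684573, minus strand), evenness was 0.357 ± 0.157 in females and 0.707 ± 0.0203 in males (limma adjusted p = 0.00225). The most upstream site held 76.7 ± 16.2% in females and 29.9 ± 6.89% in males, where a site 6419 bases downstream led with 42.4 ± 3.42%. A 6-site run on chromosome 1 (123180335 to 123182251, plus strand) kept its leading site, at 123181551, in both sexes. That site took 91.3 ± 1.74% in females and 67.8 ± 6.81% in males (evenness 0.161 ± 0.0302 and 0.4932 ± 0.0826, limma adjusted p = 5.50e-05). The CAGE library placed 99.3% of its 5308 counts (95% Wilson interval 99.1% to 99.5%) at the most upstream site instead, 1058 bases before it.

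The dominant start itself differed between the sexes in 130 of the 560 runs (23.2%), beside 11.8% of 2139 runs of 2 or more sites. This count needs no test to be passed, and in a run with several starts of like share the leading one can change by sampling alone. Of the 409 runs with both measures, 54 had a different dominant start and passed the diffSpliceDGE test (13.2%), beside 9.78% of all 1115 runs of 2 or more sites with both measures. In these 54 the male start lay downstream of the female start in 34 and upstream in 20, at a median distance of 2449 bases (113 to 11760). In runs of 2 to 5 sites the male start lay downstream in 36 of 55 such runs (65.5%, beside 63.0% here).

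A pair of sites exchanged their shares in a 7-site run on chromosome 1 (35945260 to 35948564, minus strand). The site at 35946069 took between 73.4% and 89.5% of the run in females and between 5.0% and 18.4% in males. The site at 35947316, which lies 1247 bases upstream, took between 0.806% and 5.19% in females and between 71.6% and 85.9% in males. Neither site's groups overlapped, in a run that was named for its change in the share of a site. Start use differed by diffSpliceDGE (adjusted p = 5.20e-15), which was also a condition of naming it. Summed level did not (26.7 to 78.9 CPM in females and 44.2 to 84.8 in males, edgeR adjusted p = 0.212), nor did evenness, 0.313 ± 0.0998 and 0.351 ± 0.0824 (limma adjusted p = 0.690). In CAGE, 94.7% of 1209 counts (95% Wilson interval 93.3% to 95.8%) lay at a further site, the most upstream one at 35948210, which held 12.2 ± 5.69% in females and 0.357 ± 0.463% in males.

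In the 13-site run on chromosome 3 with the largest evenness difference, the most upstream site, at 129704567, held 1.16 ± 0.684% in females and 95.7 ± 6.26% in males. The next site, at 129705764, held 41.9 ± 17.2% in females and none of 390 male counts, which allows up to 0.769%. Both sites passed the edgeR test in opposite directions, the first with a log2 of 3.41 ± 0.52 (adjusted p = 1.99e-05) and the other with an adjusted p of 1.33e-06. Start use differed by diffSpliceDGE (adjusted p = 1.87e-14). This run was named in part by that test and by sites called in opposite directions, so neither is added support. The same holds for the runs at 77091560, 152442236 and 133221395 described next. The CAGE library of the female pool placed 94.5% of 696 counts (95% Wilson interval 92.6% to 96.0%) at the site that leads in females, and none at the site that leads in males, which allows up to 0.431%.

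The longest exchange spanned 11760 bases in a 14-site run on chromosome 3 (77091560 to 77105760, plus strand). Its site at 77103360 took between 43.4% and 66.2% in females and between 0.146% and 2.53% in males, while the most upstream site, at 77091600, took 7.12 ± 4.84% and 46.7 ± 11.4%. The run was at 13.0 to 25.1 CPM in females and 118 to 943 CPM in males (log2 4.28 ± 0.58, edgeR adjusted p = 6.96e-06). Against that rise, the site at 77103360 fell by 2.42 ± 0.48 on the log2 scale (edgeR adjusted p = 0.000307), so it was lower in males both as a share of the run and as a level.

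In a 9-site run on chromosome 1 (152442236 to 152452043, minus strand), the most upstream site held 0.503 ± 0.441% in females and 63.2 ± 13.6% in males and rose by a log2 of 3.64 ± 0.59 (edgeR adjusted p = 3.78e-05). The run as a whole went the other way, with a log2 of -3.23 ± 0.27 (edgeR adjusted p = 7.00e-08), from a median of 103 CPM in females to 12.0 in males. Female counts were spread over 8 further sites, of which the highest took 20.1 ± 4.14%. Male libraries held 14 to 73 counts in that run. An 8-site run on chromosome 6 (133221395 to 133227622, plus strand) also fell in males, by 3.58 ± 0.39 on the log2 scale (edgeR adjusted p = 8.96e-07). Its site at 133223972 went from 87.2 ± 4.54% to 25.9 ± 19.1% of the run. The site at 133226466 went from 0.377 ± 0.518% to 68.2 ± 23.8% with a rise of 3.79 ± 0.60 (edgeR adjusted p = 2.96e-05). Male shares there rest on 15 to 99 counts per library.

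The remaining exchanges, besides that in the chromosome 8 run described above, were in runs of 6 or 7 sites. On chromosome 6 (9197212 to 9201877, plus strand) the run rose in males by a log2 of 3.41 ± 0.39 (edgeR adjusted p = 1.42e-06). Female shares there rest on 14 to 33 counts per library. The site at 9200427 went from 9.83 ± 6.82% in females to 92.3 ± 3.72% in males, and the site at 9198641 from 51.9 ± 21.3% to 6.04 ± 4.39% with no change of level detected (log2 0.03 ± 0.46, edgeR adjusted p = 0.961). On chromosome 4 (40817862 to 40822636, minus strand) the site at 40821581 went from 55.6 ± 11.1% to 2.99 ± 2.77% and fell by 5.69 ± 0.47 on the log2 scale (edgeR adjusted p = 6.77e-08). Its upstream neighbour, 637 bases away, went from 36.5 ± 3.87% to 92.2 ± 4.31% with no change of level detected (log2 0.16 ± 0.27, edgeR adjusted p = 0.614).

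On chromosome 2 (113379456 to 113388962, minus strand) the most downstream site went from 3.63 ± 3.18% in females to 56.2 ± 16.7% in males, and its neighbour from 54.2 ± 7.07% to 20.2 ± 8.89%. On chromosome 3 (47876019 to 47879516, minus strand) the site at 47876159 went from 15.1 ± 16.1% to 69.0 ± 9.62%, and the site at 47878139 from 65.1 ± 15.4% to 21.0 ± 8.26%. In both runs start use passed the diffSpliceDGE test (adjusted p = 2.59e-09 and 3.80e-05), and evenness did not differ (limma adjusted p = 0.612 and 0.756). For all 10 runs named for an exchange, the start use call held with each library left out in turn. These runs were picked by that test in the same libraries.

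**Figure D4:**
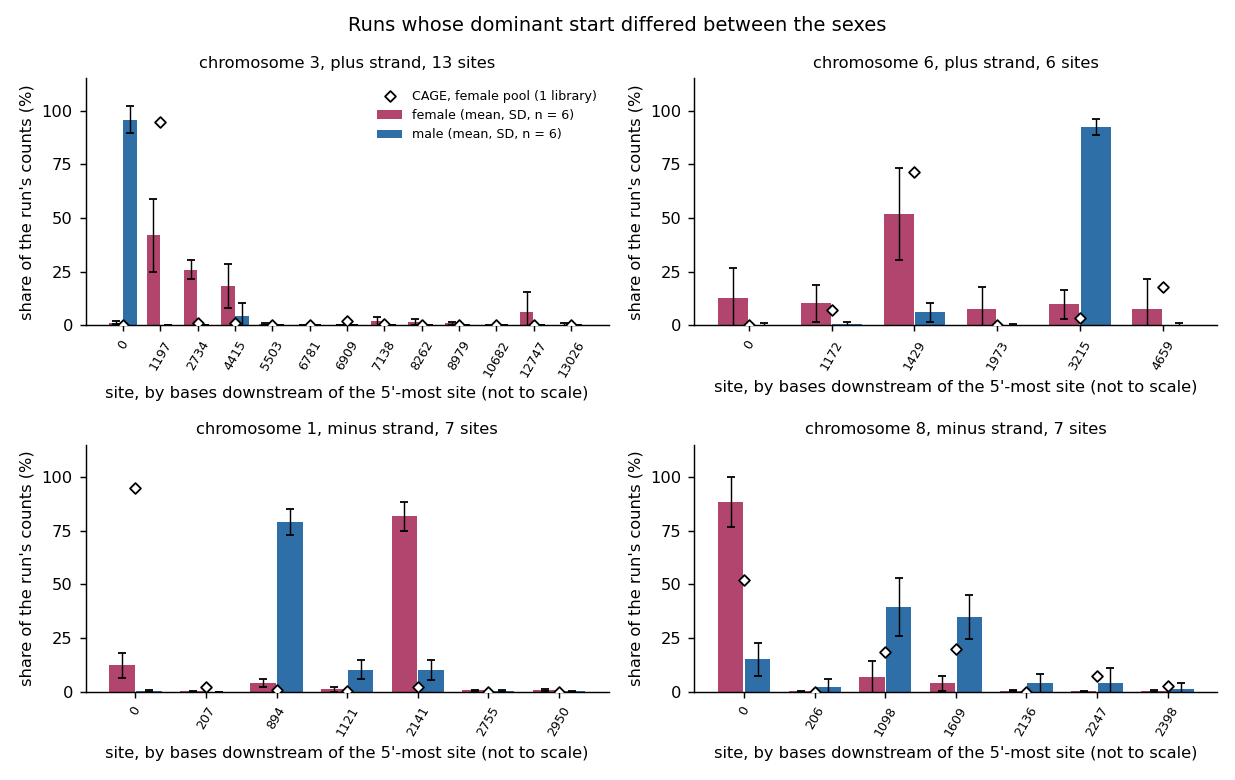
Share of the run's counts (%) at each site in the 4 named runs with the largest exchange between the sexes, with sites in order from 5′ to 3′ and labelled by bases downstream of the first. Bars are means and whiskers SD of 6 females and 6 males, and diamonds the single CAGE library of the female pool. In the run of 13 sites the first site takes 1.16% in females and 95.7% in males; in the run of chromosome 1 the site at 2141 bases takes 81.5% and 9.96%.

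Repeat WTSS-seq libraries of the female pool give the background for the comparison with CAGE. With at least 20 counts in both libraries, the 2 WTSS-seq repeats had the same dominant start in 640 of 997 runs (64.2%). Against CAGE, the first repeat had the same one in 214 of 491 runs (43.6%) and the other in 249 of 524 (47.5%). For runs of 2 to 5 sites these shares were 82.5%, 76.7% and 73.9%. With at least 100 counts in both, the shares for the member runs were 68.7%, 51.3% and 54.9%. A single CAGE library has no replicate, so these are values without a test.

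CAGE concentrated the same runs on fewer and more upstream starts. Over 490 runs with at least 20 counts in each of the 3 pool libraries, median evenness was 0.660 and 0.692 in the WTSS-seq libraries and 0.269 in CAGE. The median share of the highest site was 49.6%, 46.8% and 85.1%. CAGE was the less even library in 340 runs against the first repeat and in 358 against the other. The highest CAGE site was the most upstream of the run in 240 of 490 runs (49.0%), beside 129 (26.3%) and 136 (27.8%) in WTSS-seq. The first of the 5 parts of a run held 61.6% of its CAGE counts on average, beside 34.2% and 33.9%, and the last part 11.5%, beside 25.1% and 22.6%.

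When the highest sites differed, the CAGE site lay upstream in 229 of 277 runs for the first repeat (82.7%) and in 223 of 275 for the other (81.1%). The median distance was 2398 and 2356 bases. Depth differed between these libraries: over the 490 runs the median run had 175.5, 1212.5 and 110 counts, and evenness as used here does not depend on depth by its form. CAGE placed 8.41% of its 2641136 counts in the 1187 runs (95% Wilson interval 8.38% to 8.44%), beside 14.1% of 1935959 (14.0% to 14.1%) and 17.9% of 9227896 (17.9% to 17.9%) in WTSS-seq.

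Fewer of the sites were seen by CAGE at all. CAGE had counts at 53.4% of the 9655 member sites, from 222101 counts in these runs. The first WTSS-seq repeat, with fewer total counts but 272813 in these runs, had them at 80.3%. The other, with 1651061 in these runs, had them at 96.2%. The site list was made with both WTSS-seq repeats and the 12 individual WTSS-seq libraries beside 1 CAGE library. This can admit sites low in CAGE, and its part in these shares was not tested. For sites of runs of 2 to 5 sites the shares were 47.0%, 74.2% and 91.1%, and for single sites 47.8%, 63.3% and 79.6%. How far uncapped 5′ ends contribute to the sites of WTSS-seq was not tested.

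For the 10 runs named for an exchange of starts between the sexes, the CAGE library of the female pool was led by the female start in 6, by the male start in 1 and by a further site in 3. The deeper WTSS-seq repeat was led by the female start in 6 and by the male start in 2. On chromosome 3 (47876019), CAGE placed 94.9% of 1255 counts (95% Wilson interval 93.5% to 96.0%) at a site that held 7.68 ± 8.27% in females and 1.58 ± 1.98% in males. Whether the pooled females were among the 6 individual ones is not stated in the labels.

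Poly(A) sites lay inside most of these runs. WTTS-seq had at least 1 poly(A) site between the first and the last start, on the same strand, in 939 of 1187 runs (79.1%), with a median of 2 and up to 25. For runs of 2 to 5 sites the share was 28.7%, and for single sites 3.59%. These classes differ in length, so the shares are not comparable per base. Counting poly(A) sites up to 20000 bases downstream, 1175 runs (99.0%) had one, and the nearest one beyond the run lay at a median of 340.5 bases.

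Poly(A) levels, summed inside a run and up to 20000 bases downstream, are given beside the starts for some of the named runs. They may include other genes, and they did not follow the start level in every named run. At the 13-site run on chromosome 3 with the largest evenness difference they were 107 ± 46.9 CPM in females and 0 in all 6 male libraries, and start counts were likewise lower in males. At the highest run on chromosome 5 they were 656 ± 263 CPM in females and 11560 ± 3615 in males. Near the run of 25 sites on chromosome 4 at 29566809 they were 863 ± 556 and 0.402 ± 0.598 CPM. The 7-site run on chromosome 1 (35945260), whose start level did not differ, had poly(A) levels of 238 ± 52.7 CPM in females and 31.6 ± 11.9 in males. Starts were higher in males in the run at 9197212 on chromosome 6, where poly(A) levels were 11.1 ± 6.29 and 1.61 ± 1.68 CPM. The same held at 108059472 on chromosome 5, with 495 ± 70.4 and 508 ± 137 CPM. Starts were lower in males at 85673497 on chromosome 1, with poly(A) levels of 128 ± 40.0 and 135 ± 45.8 CPM. The labels number the animals of both assays alike, so these values are not taken as independent of the start levels.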

How the data were processed

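Per the file headers and values, the deposited tables hold raw counts by cluster, 69857 start sites in 15 libraries and 98277 poly(A) sites in 12. Every listed site has a total of at least 25. The sources used here name no aligner, clustering method or genome build, and 3 of 30 libraries (HATT-seq and Iso-seq) were not used. Columns of another library numbered 0. The 332 start sites in the left-out window of chromosome 9 and 7892 on other sequences formed no member runs. Both stayed in library totals and in the fit of site levels. The 7892 also stayed in the fits of run level, start use and evenness, from which the 332 were left out.

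Levels are counts per 1000000 on the TMM scale. Site and run levels were tested with the quasi-likelihood test of edgeR 4.0.16, TMM scaling, filterByExpr by sex and Benjamini-Hochberg adjustment over all sites or runs at 0.05. Start use was tested with diffSpliceDGE and evenness per run with limma 3.58.1 (robust empirical Bayes) over all runs with at least 2 sites. Values per animal were compared by exact two-sided permutation tests. Standard errors of log2 changes were taken as the change over the root of its F statistic. Errors are SD between animals unless named SE. Intervals, and the 3 counts that a count of 0 allows, cover counting error only. The replicates are separate animals per the labels. Where 2 columns share the header Male4 they were taken as 2 animals, on which the male n of 6 rests.

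Poly(A) levels are CPM on the TMM scale of the 12 WTTS-seq libraries. The tests were checked on simulated counts in which 200 features per step were changed, with the same dispersion for all sites. That setting has far fewer changes than were called here and no library with the composition of female 3. It therefore does not check scaling or false calls under the conditions of these data. Alternatives were DESeq2 1.42.0, RLE factors, library totals, no filter, other gaps and count minimums, a replicate block, and each library left out. R 4.3.3, Python 3.11.15, numpy 2.4.6, pandas 2.3.3, scipy 1.17.1 and matplotlib 3.10.9 were used. Members, lists and alternatives were chosen with earlier results of these data known. Named runs are the 6 with most sites, the 6 of highest level, the 4 most and 4 least even, up to 10 with the largest evenness difference past limma, up to 10 past diffSpliceDGE with a different dominant start and the largest change in the share of a site, and up to 5 past diffSpliceDGE with sites called in both directions. No gene table of the files' build was at hand, so no gene or sequence is given.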

Additional observations from a re-analysis of the deposited data

Results flagged for a closer look

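Groups of 6 animals were examined for a value that lies far from the other 5 (Dixon's test at its 95% critical value). Chance gives about 1 in 20 groups, or 3.8 of the 76 examined, and 13 values were found, 12 of them in female 3. In the values per animal, female 3 had the highest evenness (0.619), the lowest dominant share (45.7%), the most downstream mean position (0.499) and the lowest share of library counts in the runs (4.68%).

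Female 3 was the most even female in 16 of the 33 named runs with evenness values, and lay far enough from the other 5 to be listed in 8. In these its evenness was 0.218 in the run at 123180335 on chromosome 1, 0.0533 at 38773507 on chromosome 2 and 0.0494 at 12319962 on chromosome 3. It was 0.691 at 40817862 on chromosome 4, 0.194 at 61406296 and 0.623 at 108059472 on chromosome 5, 0.517 at 23081782 on chromosome 8 and 0.430 at 16537096 on chromosome 10. In that library 1 sequence that is not a chromosome held 67.2% of counts, and its part in these values was not tested. The single male value apart was the lowest one in the run at 123180335, 0.332 in the first library headed Male4, the shallowest with 1866839 counts.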

How the results depend on the processing

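Of 165 alternative values for the main results, 147 kept their direction and their side of the threshold, or for counts and shares moved little. The evenness gap to runs of 2 to 5 sites became -0.00238 (exact permutation p = 0.773) when runs were built with gaps of 500 bases, and the sex difference in dominant share -0.985 points (exact permutation p = 0.0801) when the dominant start was taken from the female pool; neither passed at those settings and the cause was not tested. The male minus female share of library counts, 10.5 points, was 1.61 without the 100 highest sites, 0.937 without the highest member site, -0.194 without that site and female 3 (exact permutation p = 0.801) and 9.38 under a replicate block, where 3 pairs cannot go below p = 0.25 (exact sign-flip test). Site calls were 4506 of 9610 with no filter (46.9%, beside 51.0% of all sites tested). Start use calls were 242 of 1187 runs with no filter (11.9% of all runs tested passed), 15 of 103 with gaps of 500 bases (17.9% of all) and 366 of 1081 with 5000 (32.0% of all). Evenness calls were 41 of 279 with a minimum of 30 counts (14.7%, beside 17.5% of all runs tested). Of 560 runs, 10 were called under the replicate block (1.79%, beside 2.26% of all). In the same 6 libraries without the block, 46 were called (8.21%, beside 11.5% of all). With at least 100 counts the WTSS-seq repeats of the pool had the same dominant start in 68.7% of runs. CAGE had the same one as the first repeat in 51.3% and as the other in 54.9%. With 5000 bases downstream 94.9% of runs had a poly(A) site.

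With each library left out in turn, the difference in position ranged from 0.00888 to 0.0251, passing without female 3 alone. The differences ranged from -0.0158 to -0.00653 in evenness, 0.534 to 2.09 points in dominant share, 0.00318 to 0.00697 in the evenness gap and 9.34 to 11.0 points in the share of library counts. Calls ranged from 1721 to 1892 sites (66.5% to 71.3% of those tested, beside 68.1% to 74.0% of all sites). By level they ranged from 749 to 801 runs (64.6% to 70.6%, beside 66.6% to 72.9% of all runs). By start use they ranged from 128 to 179 (20.8% to 29.2%, beside 21.8% to 30.4% of all). By evenness they ranged from 63 to 93 (11.25% to 16.6%, beside 14.0% to 19.6% of all). Replicate numbers shared by the sexes (1, 5 and 6) did not pair the animals: deviations of same-numbered animals correlated at 0.0132, -0.126 and -0.0267. For the named runs, 7 of 155 alternatives lost an evenness call, all in the 6 numbered libraries, and none of 170 a start use call or of 214 a level call. Depth limits evenness to 560 of 1187 runs.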
